A study of Arabidopsis thaliana with 4 samples.

Results

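The chloroplast of Arabidopsis thaliana keeps a small genome of its own, and the genes described here are those that build its gene expression machinery, together with a few that serve other tasks. They are defined by annotation, as the ATH1 probe sets that name a plastid gene with a symbol beginning rpo, rps, rpl or ycf, or the gene accD, clpP, matK or ccsA. The rule found 32 probe sets for 31 genes, out of 22746 probe sets that are not controls. By role there were 4 probe sets for RNA polymerase, 11 for the small and 9 for the large ribosomal subunit, 4 for ycf genes and 4 for the remaining genes. Both rps12 probe sets, and those of rpl2, rpl23, rps7, ycf1 and ycf2, carry 2 gene identifiers with 1 symbol, so the copies of these genes cannot be told apart.

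Transcripts were measured in whole seedlings at growth stage 1.02 with 1 array per sample, 2 for the wild type and 2 for flc-3. Both lines have the Col-0 background. The wild type is labelled FRI; FLC, and flc-3 carries a knockout in At5g10140, which encodes the floral repressor FLC, with fri in lower case in its titles, so its FRI allele is not settled. All seedlings had 6 days of constant light and 4 days of alternating 12 h light and 12 h darkness at 22 °C, and then constant light at 27 °C. RNA collected 24, 30, 36 and 42 h after that transfer was pooled in equal amounts, so every value is an average over the day. The labels do not say that replicates were separate cultures, so p-values rest on a spread that may be technical.

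The arrays had nearly the same median signal, 47.1 to 48.5, and their number limits the precision of every value. Values are signal intensities in the units of the deposited scaling. The photosystem II gene psbA read 894 and 1145 in wild-type seedlings against 1341 and 847 in flc-3, well above the median of each array. The array of flc-3 replicate 1 stood apart in the control for 25S ribosomal RNA, at 1426 against 45.7 to 134.6 on the others. Ratios of the 3′ to the 5′ control lay between 3.76 and 4.52 for actin and between 1.02 and 1.18 for GAPDH. No probe set is named FLC in the annotation, so the genotype was not checked by its target.

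Plastid genes are read by 2 kinds of RNA polymerase. One is of bacterial type, with its core subunits encoded in the plastid by the rpo genes and its sigma factors in the nucleus. The other is a phage-type enzyme encoded in the nucleus, which is known to transcribe rpoB, accD and ycf2 among others. Plastid ribosomes are also of bacterial type, with some proteins made in the plastid and the others imported. Many plastid genes are transcribed together in long RNAs that are then cut, and these RNAs rarely carry stable poly(A) tails. The labels name no primer for the labelling step, so a signal may depend on how well such RNA was labelled.

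The genotypes were compared to see which plastid transcripts differed in seedlings without FLC at 27 °C. Of the 32 probe sets, 29 were bright enough to be tested. The gene rpl36 rose in flc-3, by 1.75-fold, and it was the only one of the 29 to pass an adjusted p of 0.05 in limma. Of all tested probe sets 1.69% passed in either direction and 1.37% in the higher one. None of the 29 passed in the lower direction, where 0.315% of all did. At an unadjusted p under 0.05 there were 5 higher and 0 lower, where 6.29% and 5.77% of all tested probe sets lay. The log2 difference was above 0 for 23 of the 29, against 47.5% of all tested probe sets, and its median over the 32 probe sets was 0.24, against -0.01 over all tested. Whether more or fewer plastids or cells of a type, or more or less RNA in each, lay behind a difference cannot be told apart in whole seedlings.

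Arrays of the same genotype also differed from each other. For 25 of the 29 tested probe sets, at least 1 of the replicate differences was larger than the genotype difference, as it was for 69.9% of all tested probe sets. Both flc-3 arrays lay above both wild-type arrays for 9 of the 29 (31%), against 20.1% of all tested probe sets, and both lay below for 0, against 22.8% of all. The median log2 signal of the 32 probe sets was 8.37 and 8.75 in wild-type seedlings against 9.07 and 8.75 in flc-3, in the order of replicates 1 and 2. By this median wild type replicate 1 was low and flc-3 replicate 1 high, with the other arrays alike. In single probe sets, flc-3 replicate 1 exceeded wild type replicate 1 for 27 of the 32 (median log2 difference 0.62). Replicate 2 of flc-3 exceeded wild type replicate 2 for 14, with a median of -0.10. An exact permutation test of 2 arrays against 2 cannot give a 2-sided p below 0.333, so it was not used for single genes.

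**Figure D1:**
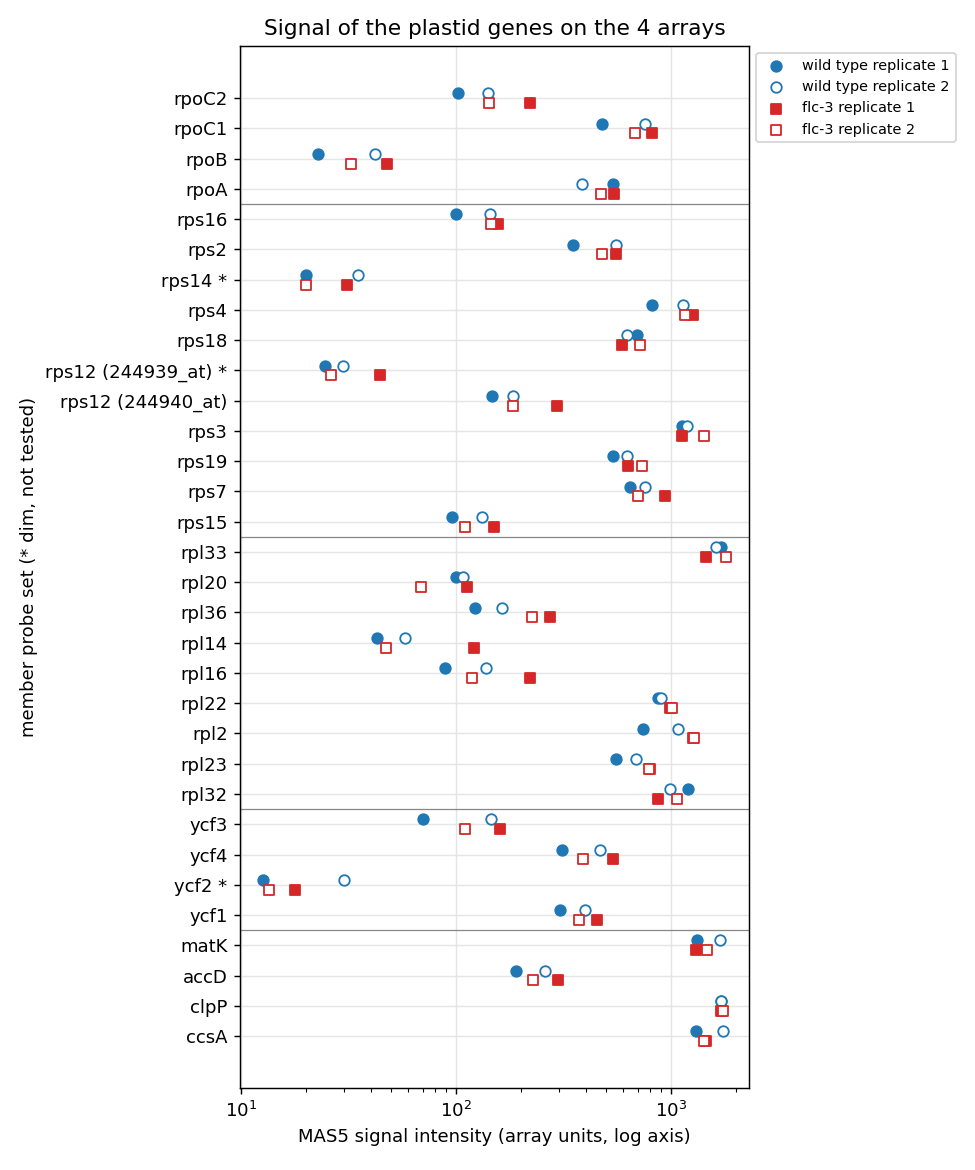
MAS5 signal intensity (log axis) of each of the 32 probe sets on the 4 arrays, with circles for wild type, squares for flc-3, filled marks for replicate 1 and open marks for replicate 2; lines divide the roles and stars mark the 3 dim, untested probe sets. Wild type replicate 1 is the lowest array in 23 of 32 rows and flc-3 replicate 1 the highest in 19.

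The rpo genes encode the core of the bacterial-type polymerase: rpoA its α subunit, rpoB the β subunit, and rpoC1 and rpoC2 the parts of β′. All 4 had a log2 difference above 0, with a median of 0.32, and none passed an adjusted p of 0.05 in limma. The signal of rpoC2 was 102 and 141 in wild-type seedlings against 221 and 142 in flc-3. Its arrays did not overlap, but the lower flc-3 array nearly equalled the higher wild-type array, and the log2 difference was 0.56 ± 0.21 (moderated SE with 2 arrays of each genotype, as in all errors given here; limma adjusted p = 0.303).

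The signal of rpoC1 was 479 and 759 in wild-type seedlings against 815 and 678 in flc-3, with a log2 difference of 0.30. The β subunit gene rpoB was dim, at 22.7 and 41.9 in wild-type seedlings against 47.5 and 32.3 in flc-3, with a difference of 0.34 ± 0.29. In both genes flc-3 replicate 2 fell between the wild-type arrays, so the genotypes overlapped. The gene rpoA read 538 and 385 in wild-type seedlings against 539 and 471 in flc-3, with a difference of 0.15. Unlike the other rpo genes, its first wild-type replicate exceeded the other, by 0.48 on the log2 scale.

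Small-subunit proteins bind the messenger RNA and decode it. Of 9 tested rps probe sets, 8 had a difference above 0, none passed, and the median was 0.23. The protein of rps12 lies at the decoding centre, and its gene is joined from separate transcripts by trans-splicing. The brighter of its probe sets read 146 and 184 in wild-type seedlings against 293 and 183 in flc-3, with a log2 difference of 0.49 ± 0.20 (limma adjusted p = 0.36). Only flc-3 replicate 1 stood above the wild type there. The dimmer rps12 probe set was not tested, and it read 24.6 and 29.6 against 44.1 and 26.1, again with flc-3 replicate 1 as the highest array.

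The rps4 protein starts the assembly of the small subunit in bacteria. Its signal was 813 and 1138 in wild-type seedlings against 1259 and 1160 in flc-3, a log2 difference of 0.33 (limma adjusted p = 0.479). The signal of rps16 was 99.7 and 143 in wild-type seedlings against 156 and 145 in flc-3, with the same difference of 0.33. In both, the genotypes did not overlap, by a margin smaller than the gap between the wild-type arrays. The gene rps19 was closer between replicates, at 538 and 620 against 631 and 734, and its difference was 0.24 ± 0.13 (limma adjusted p = 0.501).

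The remaining rps genes overlapped between genotypes. The rps7 protein organises the head of the small subunit in bacteria, and its gene read 642 and 754 in wild-type seedlings against 940 and 704 in flc-3. The gene rps2, beside rpoC2 in the genome, read 350 and 557 against 551 and 475, and rps15 read 96 and 132 against 150 and 110. Differences were 0.23 for rps7, 0.21 for rps2 and 0.19 for rps15, and wild type replicate 1 was the lowest array for each. The protein of rps3 lies where messenger RNA enters the bacterial ribosome, and its gene read 1129 and 1189 against 1126 and 1423, a difference of 0.13. The gene rps18 read 693 and 620 against 593 and 714, with a difference of -0.01. The signal of rps14, too dim to be tested, was 20.1 and 34.9 against 31.2 and 20.

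Large-subunit proteins surround the site where peptide bonds form and the tunnel through which the chain leaves. Of the 9 rpl probe sets, all tested, 6 had a difference above 0, and the median was 0.36. The smallest of these proteins is encoded by rpl36. Its signal was 123 and 164 in wild-type seedlings against 274 and 225 in flc-3. Both flc-3 arrays lay clearly above both wild-type arrays, and the log2 difference was 0.80 ± 0.15 (limma adjusted p = 0.0282). It was 0.66 without flc-3 replicate 1, the array with the high 25S control, where the call was lost (limma adjusted p = 0.227). It was 0.60 without wild type replicate 1, where the limma adjusted p was 0.0494. The call was also lost after quantile normalization (adjusted p = 0.0704), with dim probe sets kept in (0.151) and without the intensity trend (0.104), with differences of 0.80 in each.

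The protein of rpl2 lies near the peptidyl transferase centre, and that of rpl23 at the exit of the tunnel. The signal of rpl2 was 740 and 1072 in wild-type seedlings against 1264 and 1270 in flc-3, a log2 difference of 0.51 ± 0.17 (limma adjusted p = 0.263). The signal of rpl23 was 556 and 682 against 793 and 786, a difference of 0.36 ± 0.13 (limma adjusted p = 0.29). The flc-3 arrays were close to each other in both genes and above both wild-type arrays, of which replicate 1 was the lower. The gene rpl22, whose protein lines the tunnel, read 866 and 892 against 989 and 1013. It differed little between replicates of either genotype, and its difference was 0.19 ± 0.12 (limma adjusted p = 0.58).

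In rpl14 and rpl16 the difference leaned on the replicate 1 arrays. Without flc-3 replicate 1 the log2 difference was -0.08 for rpl14 and 0.10 for rpl16. Without wild type replicate 1 it was 0.38 and 0.24. The signal of rpl14 was 42.7 and 57.9 in wild-type seedlings against 121 and 47 in flc-3, a log2 difference of 0.59 ± 0.35. The signal of rpl16 was 88.9 and 137 against 221 and 119, a difference of 0.55 ± 0.27. In both genes flc-3 replicate 1 was the highest array and flc-3 replicate 2 lay within the range of the wild type. Neither passed in limma, with adjusted p of 0.545 for rpl14 and 0.461 for rpl16.

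The other 3 rpl genes were not higher in flc-3. The signal of rpl33, whose loss in tobacco impairs translation in the cold, was 1698 and 1624 in wild-type seedlings against 1447 and 1791 in flc-3, a log2 difference of -0.04. The signal of rpl32 was 1196 and 986 against 868 and 1064, a difference of -0.18 ± 0.15. For rpl20 it was 99.4 and 108 against 112 and 68.7, a difference of -0.24 ± 0.20, with the flc-3 arrays on either side of the wild type. None of the 3 passed, with limma adjusted p from 0.706 to 0.946.

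The ycf genes were first named as conserved open reading frames. The products of ycf3 and ycf4 help to assemble photosystem I, and those of ycf1 and ycf2 have been described as parts of the import machinery of the inner envelope. The signal of ycf3 was 69.8 and 145 in wild-type seedlings against 161 and 110 in flc-3, and its log2 difference was 0.39 ± 0.29. Wild type replicate 1 was the lowest array, and its log2 difference from wild type replicate 2 was -1.05, larger in size than that between genotypes. The signal of ycf4 was 311 and 465 against 534 and 390, a difference of 0.26, and that of ycf1 was 304 and 399 against 453 and 372, a difference of 0.24. The order of the arrays was the same in ycf1, ycf3 and ycf4, from wild type replicate 1 through flc-3 replicate 2 and wild type replicate 2 to flc-3 replicate 1. The limma adjusted p of these 3 lay between 0.574 and 0.649. The signal of ycf2 was 12.7 and 30.1 against 17.9 and 13.5, near the first quartile of the arrays (13.2 to 14.1), and it was not tested.

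The remaining genes each serve a different task. The accD product is a subunit of acetyl-CoA carboxylase, which opens fatty acid synthesis, and accD read 189 and 258 in wild-type seedlings against 297 and 228 in flc-3. Its log2 difference was 0.24 ± 0.17 (limma adjusted p = 0.626), with overlap between genotypes. The clpP product is a proteolytic subunit of the stromal Clp protease, and clpP was the steadiest across arrays, at 1700 and 1697 against 1702 and 1746. Both flc-3 arrays were higher there, but the difference was only 0.02 ± 0.15. The signal of matK, a splicing factor of group II introns, was 1323 and 1683 against 1306 and 1465, and that of ccsA, which attaches haem to c-type cytochromes, was 1308 and 1748 against 1455 and 1415. Their differences were -0.11 and -0.08, and each was highest in wild type replicate 2. Of the phage-type polymerase targets named above, rpoB and accD thus had differences of 0.34 and 0.24, and neither passed in limma. The third, ycf2, had -0.32 at a signal too dim to be tested. These are only some of the targets of that polymerase, so nothing is read from them about the others.

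The same differences were also read in the order of genes along the plastid genome. In the run from rpoA to rpl23, all 9 genes analysed had a difference above 0, from 0.13 for rps3 to 0.80 for rpl36. The values within it were uneven. They were 0.55 to 0.80 for rpl36, rpl14 and rpl16, then 0.13 to 0.24 for rps3, rpl22 and rps19. Next came rpl2 at 0.51 and rpl23 at 0.36. With 1 array left out, rpl14 turned to -0.08 (without flc-3 replicate 1) and rpoA to -0.09 (without wild type replicate 2). The gene rps3 turned to -0.04 without flc-3 replicate 2. In the run from rps2 to rpoB, 4 of 4 genes lay above 0, from 0.21 for rps2 to 0.56 for rpoC2. Without wild type replicate 1, however, rps2, rpoC1 and rpoB were at -0.12, -0.03 and -0.09, and rpoC2 at 0.33. All 4 stayed above 0 when any other array was left out. Next to rps2 are 4 ATP synthase genes. The nearest, atpI, was too dim to be tested, with overlapping genotypes and a difference of 0.13. Farther along, atpA rose by 1.24 ± 0.19 and atpF by 1.21 ± 0.19 (limma adjusted p = 0.00816 and 0.00843), and atpH had a difference of 1.10 (limma adjusted p = 0.0728). In the run from rpl33 to clpP, 3 of 5 tested probe sets lay below 0, and rps12 was at 0.49. The rps12 probe set carries 2 gene identifiers, and which part of this trans-spliced gene it reads is not known. Its place in the run is thus uncertain. Genes of a run may share transcripts, so they are not independent observations.

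**Figure D2:**
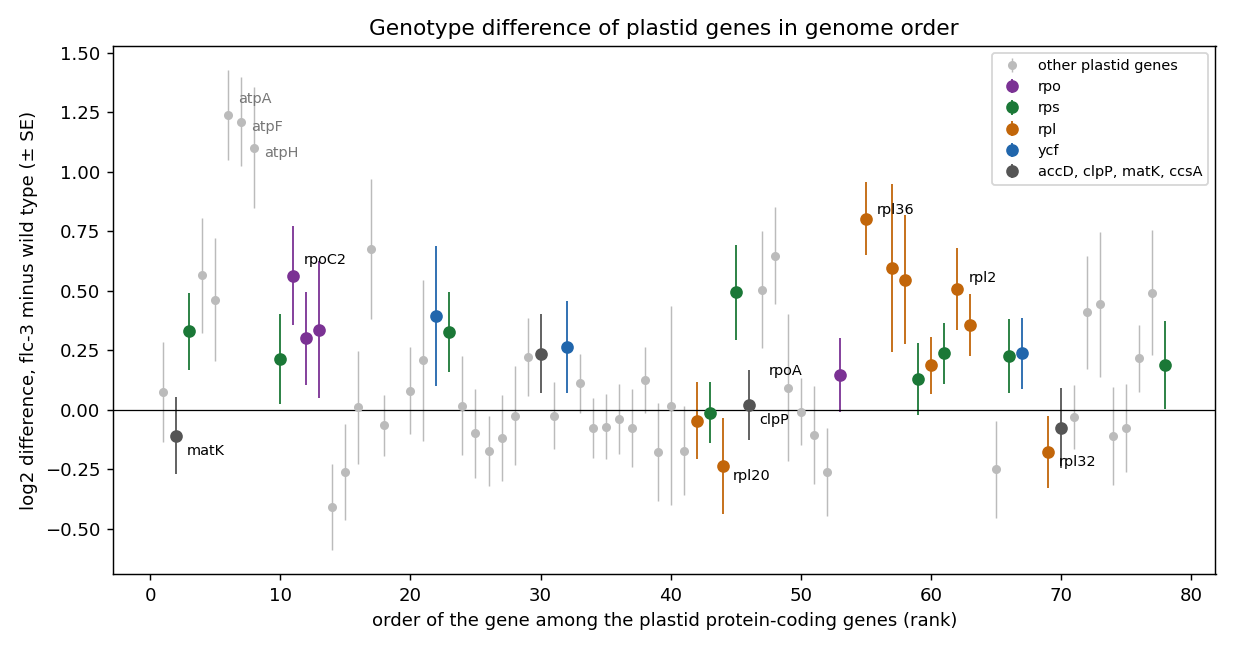
Log2 difference between flc-3 and wild type (mean of 2 arrays each, bars show the moderated SE) for tested plastid probe sets, by the rank of the gene among plastid protein-coding genes; colours mark the roles and grey marks other plastid genes. The 9 genes analysed from rpoA to rpl23 lie above 0, with rpl36 at 0.80, and atpA, atpF and atpH reach 1.10 to 1.24.

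The other plastid genes gave a background for these values. Over their 45 probe sets the median log2 difference was 0.01, and of 43 tested, 22 lay above 0 and 2 passed, atpA and atpF. The median was 0.08 for 5 photosystem I and 0.07 for 15 photosystem II probe sets, -0.03 for 11 of the NDH complex, -0.14 for 6 of the cytochrome genes and 0.62 for 6 of ATP synthase. Against these, the medians were 0.32 for rpo, 0.23 for rps, 0.36 for rpl and 0.25 for ycf probe sets, and -0.03 for accD, clpP, matK and ccsA together. At an unadjusted p under 0.05 in limma, 6 of the 43 other plastid probe sets were higher and 0 lower, beside 5 and 0 of the 29. Single photosystem II probe sets ran from -0.26 to 0.68, so differences of this size were not confined to the 32. Those of ATP synthase were split, so their median describes none of them. While atpA, atpF and atpH were at 1.10 to 1.24, the untested atpI was at 0.13, atpB at -0.02 and atpE at -0.12. No test of the difference between these groups was made.

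Between arrays of 1 genotype most of these genes differed in the same direction. Of the 32 probe sets, 27 were lower in the first wild-type replicate than in the other (median log2 difference -0.42), and 23 were higher in the first flc-3 replicate than in the other (median 0.27). The corresponding medians of all tested probe sets were -0.01 and 0.01. Both held at once for 22 of 32 probe sets (68.8%), for 29 of the 45 other plastid probe sets (64.4%) and for 25.4% of all tested. Wild type replicate 1 was the lowest array for 23 of the 32, against 27.5% of the tested probe sets with no plastid gene named. Replicate 1 of flc-3 was the highest for 19 of the 32, against 24.6% of those other probe sets. The shift was thus shared with the rest of the plastid genome. The replicate numbers are only names, and the cause of the shift was not tested.

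**Figure D3:**
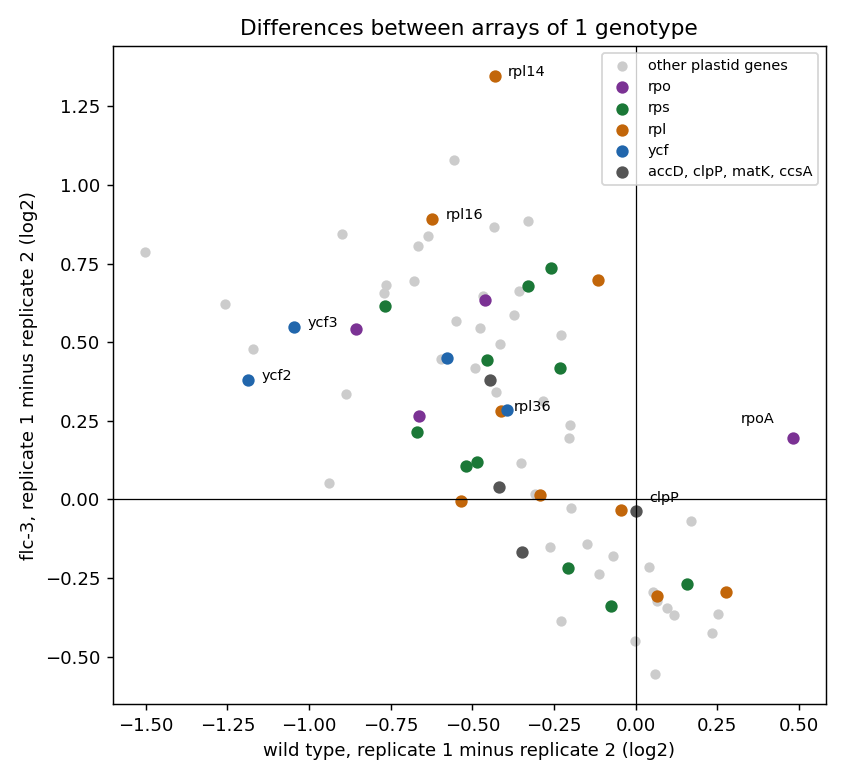
Log2 difference between replicate 1 and replicate 2 in the wild type (x axis) and in flc-3 (y axis) for the 32 probe sets, coloured by role, and for the other plastid genes in grey. Of the 32, 22 lie in the upper left quadrant, lower in wild type replicate 1 and higher in flc-3 replicate 1, with rpl14 the highest and rpoA alone at the upper right.

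The shift was larger in dim probe sets, with limits set after the values were seen. Of 14 probe sets with a mean signal of 500 or more, 5 followed both directions, with a median of -0.22 in the wild type and -0.04 in flc-3. Of 12 between 100 and 500, 11 did, with medians of -0.46 and 0.41. All 6 under 100 did, with medians of -0.60 and 0.66. Among tested probe sets with no plastid gene named, 7.35%, 24.6% and 28.7% of the same 3 ranges did so. Their medians lay between -0.12 and 0.04. The 14 brighter probe sets, where replicates were closer, had a median genotype difference of 0.16, from -0.18 for rpl32 to 0.51 for rpl2, and the 12 between 100 and 500 had 0.30, all above 0. The 6 under 100, of which 3 were tested, had a median of 0.12. Between the replicate 1 arrays the median of flc-3 minus wild type was 0.17, 0.72 and 0.71 in the 3 ranges, from bright to dim. Between the replicate 2 arrays it was 0.13, -0.14 and -0.50.

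Values that could move with this shift were set beside it. The 25S control read 134.6 and 47.6 in wild-type seedlings against 1426 and 45.7 in flc-3, so it was high where the plastid signals were high, in flc-3 replicate 1, but it was also higher in wild type replicate 1, where they were low. The 5S ribosomal RNA control, chosen after its values were seen, read 43.3 and 82.8 against 54.6 and 42.6. Between replicates it differed in the same directions as the plastid genes did. The 3′ to 5′ ratio of actin was 3.76 and 4.44 against 4.23 and 4.52, and that of GAPDH was 1.18 and 1.10 against 1.02 and 1.06. The part of any of these in the plastid values was not tested.

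Leaving out arrays moved the genotype difference accordingly. The median over the 32 probe sets, 0.24 with all arrays, dropped to 0.06 when wild type replicate 1 was left out and to 0.10 for flc-3 replicate 1. It was 0.44 with wild type replicate 2 left out and 0.38 for flc-3 replicate 2. The sign turned in 7 of the 29 tested probe sets without wild type replicate 1 and in 4 without flc-3 replicate 1. It turned in 3 without wild type replicate 2 and in 2 without flc-3 replicate 2. When flc-3 replicate 2 was left out, the difference was 1.27 for rpl14 and 0.83 for the brighter rps12 probe set. Without wild type replicate 2 it was 0.59 for rps16. The difference of rpl36 lay between 0.60 and 1.01 in the 4 fits.

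**Figure D4:**
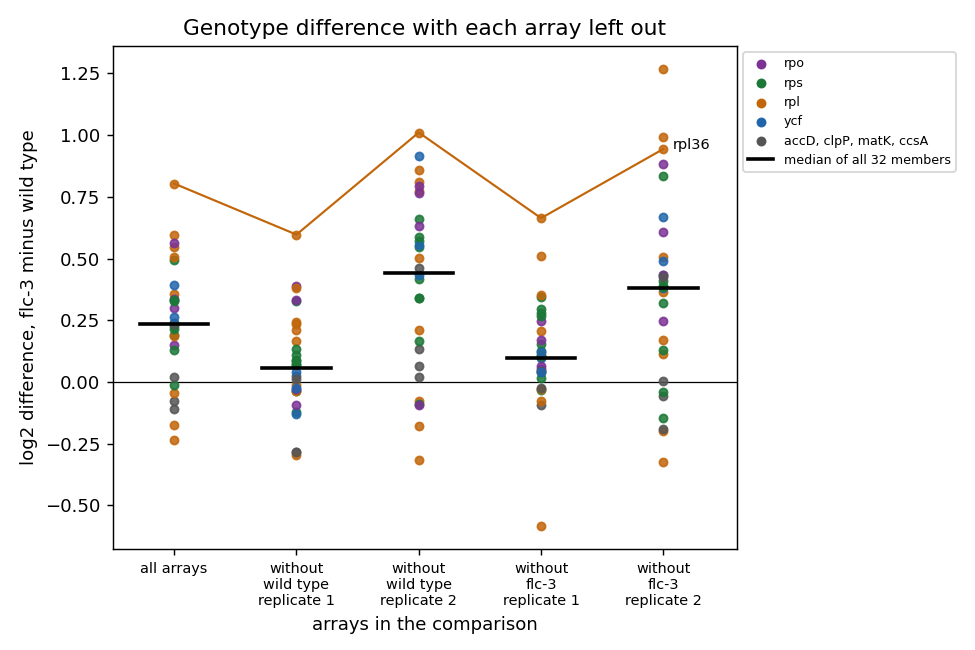
Log2 difference between flc-3 and wild type for the 29 tested probe sets, coloured by role, with all arrays and with each array left out in turn; the black bar is the median of all 32 probe sets and the line joins rpl36. The median runs from 0.06 without wild type replicate 1 to 0.44 without wild type replicate 2, and rpl36 from 0.60 to 1.01.

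The nuclear partners of these genes were thinly covered. Of 68 genes on lists of sigma factors and phage-type polymerases, polymerase-associated proteins, imported plastid ribosomal proteins, Clp subunits and acetyl-CoA carboxylase subunits, 10 were named in the annotation and 9 tested. None passed in limma in either direction, and all 9 had a log2 difference below 0, as did 52.5% of all tested probe sets. The 7 imported ribosomal proteins had a median of -0.15. The smallest p among them belonged to PRPL19A (AT4G17560), at 420 and 432 in wild-type seedlings against 348 and 381 in flc-3 and differed by -0.23 on the log2 scale (limma adjusted p = 0.43), followed by PRPS10 (AT3G13120) at -0.21 and PRPL19B (AT5G47190) at -0.16. The Clp subunit CLPP4 (AT5G45390) read 658 and 601 against 501 and 544 (-0.27, limma adjusted p = 0.375), and CLPR3 (AT1G09130) had -0.20. The phage-type polymerase gene RPOTmp (AT5G15700) was not tested, with signals of 7.24 to 10.2. Bright probe sets leaned the same way. Of 1116 with no plastid gene named and a mean of 500 or more, 722 lay below 0. The 7 imported ribosomal proteins thus had differences opposite in sign to most rps and rpl genes, and none of the 7 passed.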

How the data were processed

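Whole-seedling RNA was measured on 4 arrays, 2 per genotype, grouped by the genotype in the titles. The deposited values are linear signal intensities from the authors; per the submitters' processing notes, the tool was MAS5, with no version named. Each array had a trimmed mean of 100 units, and this deposited scaling was kept. Detection calls were not used, so it is not known which dim signals lay above background. Of 22810 probe sets, 64 controls were left out. The platform annotation gave 1 gene symbol to 13513 probe sets, several to 503 and none to 8730, and gene identifiers were matched to a TAIR10.1 gene table, used for names and gene order only.

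Values were transformed as log2(value + 1), a scale on which changes of dim signals come out too small, and the 13648 probe sets at or above the 40th percentile of the mean were tested, 2-sided, with genotype as the only term in limma 3.58.1 under R 4.3.3 (lmFit and eBayes, trend = TRUE, with 2 residual and 7.66 prior df). P-values were adjusted over all of them by Benjamini-Hochberg, with a threshold of 0.05. Tested on simulated data of 13648 probe sets (10 runs, 200 changed in each), the fit found 48.5% of changes of 2-fold and 87.4% of those of 4-fold, and 2.1% of its calls were false. Simulated noise was independent between probe sets, so these rates do not cover the replicate shift that the plastid genes shared. All members are named, with other plastid genes given as groups, and from the nuclear lists the 3 smallest p of each. The members and lists were chosen with earlier results of these data known. Alternatives were other normalizations, pseudocounts, filters, eBayes settings, thresholds, a replicate block, narrower member lists and each array left out. Replicate differences of the genotypes correlated at 0.09 over tested probe sets, so the numbers were not taken to pair the arrays.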

Additional observations from a re-analysis of the deposited data

Results flagged for a closer look

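A control for 25S ribosomal RNA was used in no comparison, and its signal on the array of flc-3 replicate 1 was 1426, above both wild-type arrays (134.6 and 47.6) and flc-3 replicate 2 (45.7). It is listed as a signal outside the main measurement that exceeded the wild type. That array also gave the highest signal for 19 of the 32 plastid probe sets.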

How the results depend on the processing

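The median log2 difference of the 32 plastid probe sets between genotypes, 0.24 as reported, was 0.22 to 0.26 under other normalizations and pseudocounts and 0.06 to 0.44 with 1 array left out. None of these moved it by more than the spread between replicates (SD 0.25), but that SD came from the same arrays. Leaving 1 of them out could hardly move the median further than that, so the SD is no check on the range of 0.06 to 0.44. Filters and the replicate block cannot move it. Over only the probe sets annotated with 1 gene, a choice made after seeing the data, it was 0.21. Under the same normalizations and pseudocounts the medians between replicates were -0.42 to -0.38 in the wild type and 0.23 to 0.29 in flc-3. The number of members called, 1 in the reported fit, was 0 with quantile normalization, no filter or no intensity trend, and 0 (without flc-3 replicate 1) to 3 (without flc-3 replicate 2) with 1 array left out. The 230 probe sets called overall (1.69% of those tested) became 121 with no filter, 149 with a filter at the 60th percentile and 147 (without flc-3 replicate 1) to 364 (without wild type replicate 1) with 1 array left out, where the lone array is assumed to vary like the other genotype. The replicate block called 769 probe sets and 6 members (rpl36, rpl2, rpl14, rpl16, rpoC2 and rps12), but with residual df 1 and an infinite prior df it gave every probe set a spread taken from its intensity alone, and its p-values are not relied on. Every array is paired there only by a number. The call of rpl36 held in 10 of the 14 alternative fits other than the block. Adding probe sets with several symbols could not be run, since 0 of them held a plastid gene of the rule. Where settings changed a call, the cause was not tested. With 2 arrays per genotype and no detection calls, differences such as those of rpl14, ycf3, rpoB and rpl16 have SEs of 0.27 to 0.35.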
